A study of Mus musculus with 8 samples.

Results

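Cholesterol and fatty acid synthesis was followed through 33 genes in endothelial cells sorted from the brains of wild-type mouse pups and of pups labelled as endothelial knockouts of the glucose transporter GLUT1. The genes were listed by symbol, by their known roles, and every one of the 33 had a row among the 25700 gene identifiers of the count tables. They comprised 17 enzymes of sterol synthesis, 5 genes of the SREBP system, 6 genes of sterol transport and efflux and 5 genes of fatty acid and lipid synthesis. All 33 passed the filter on low counts, with the smallest count in any library being 35 reads, for Idi1.

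The mice were C57BL/6 pups at postnatal day 6. One group of 4 pups carried the label GLUT1EC-/-, an endothelial loss of GLUT1 (KO), and the other 4 were wild type (WT). The driver that removed the gene is not given in the sources used here, and each library came from a different pup. Although the labels call the WT pups littermates, the titles give 2 cages, the first with the 4 KO pups and WT pup 5, the second with WT pups 1 to 3. A second set of names in the deposit places WT pup 3, not WT pup 5, with the KO pups. Genotype and cage were therefore nearly confounded under either reading, and where they are, they cannot be told apart.

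Cells make cholesterol from acetyl-CoA through the mevalonate pathway, which leads to squalene, and then close and trim the squalene chain to sterols. SREBP transcription factors sit in the endoplasmic reticulum with their escort SCAP and are held there by INSIG proteins when sterols are plentiful. When sterols run low they are cut and enter the nucleus, where SREBP-2 mainly drives sterol genes and SREBP-1 mainly drives fatty acid genes. Excess sterol is exported by ABC transporters under the control of the LXR nuclear receptors. In brain, where lipoproteins from blood do not cross the barrier, cholesterol is made locally, and the endothelium of the barrier handles sterols and lipids on both of its faces.

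Total counts per library ran from 20858070 in KO pup 1 to 114007737 in WT pup 2. Slc2a1, which encodes GLUT1, measured 1386 to 1601 CPM (read counts scaled to a common library size) in KO pups and 2237 to 3725 CPM in WT pups. Its log2 fold change was -1.01 (SE 0.14, adjusted p 0.00619 in edgeR's quasi-likelihood test), a fold of 0.495, so its reads were reduced in all 4 KO pups but not absent. No source used here names the deleted exons. The summed level of 12 endothelial markers was 16607 to 18221 CPM in KO and 18490 to 20550 CPM in WT, and all 12 were present. Slc2a1 is one of those 12, so its own difference enters the sum. Of the 12 genes, 5 had a log2 fold change above 0 and 7 below, with a median of -0.01, and only Slc2a1 was called. KO pup 1, the library with the fewest counts, stood apart: 13624 genes had a count in it, and 15756 to 17082 in the 7 others. These numbers of genes were not adjusted for depth. Mitochondrially encoded transcripts took 2.04 to 2.48% of counts in KO and 1.66 to 1.89% in WT, without overlap. The part of any of these differences in the results below was not tested. Because these are bulk samples of sorted cells, fewer cells of a type and less RNA per cell cannot be told apart.

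In WT endothelium the genes spanned a wide range of levels, with a lipid desaturase and a sterol exporter far above the rest. Levels between genes are compared as CPM per kilobase of annotated exon, because longer transcripts give more reads. Scd2, a stearoyl-CoA desaturase that makes monounsaturated fatty acids, was the highest at 118 ± 9.44 CPM per kilobase (SD, n = 4), a level that 2.22% of the tested genes exceeded. Abca1, which exports cholesterol to lipoproteins, followed at 101 ± 4.42 CPM per kilobase. The WT pups' values of these 2 genes did not overlap with each other, at 108 to 129 for Scd2 and 95.9 to 106 for Abca1. Npc2, which carries cholesterol out of the lysosome, measured 29.9 ± 2.16, Stard4, a cytosolic sterol carrier, 22.9 ± 2.02, Abcg1, the second sterol exporter, 19.6 ± 3.42 and Mylip 17.9 ± 2.59. Neighbours from Stard4 to Mylip overlapped between pups. Down the whole order, a gene's WT values were separate from those of the next gene only after Scd2, Abca1, Npc2, Mylip, Scap and Fasn.

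**Figure D1:**
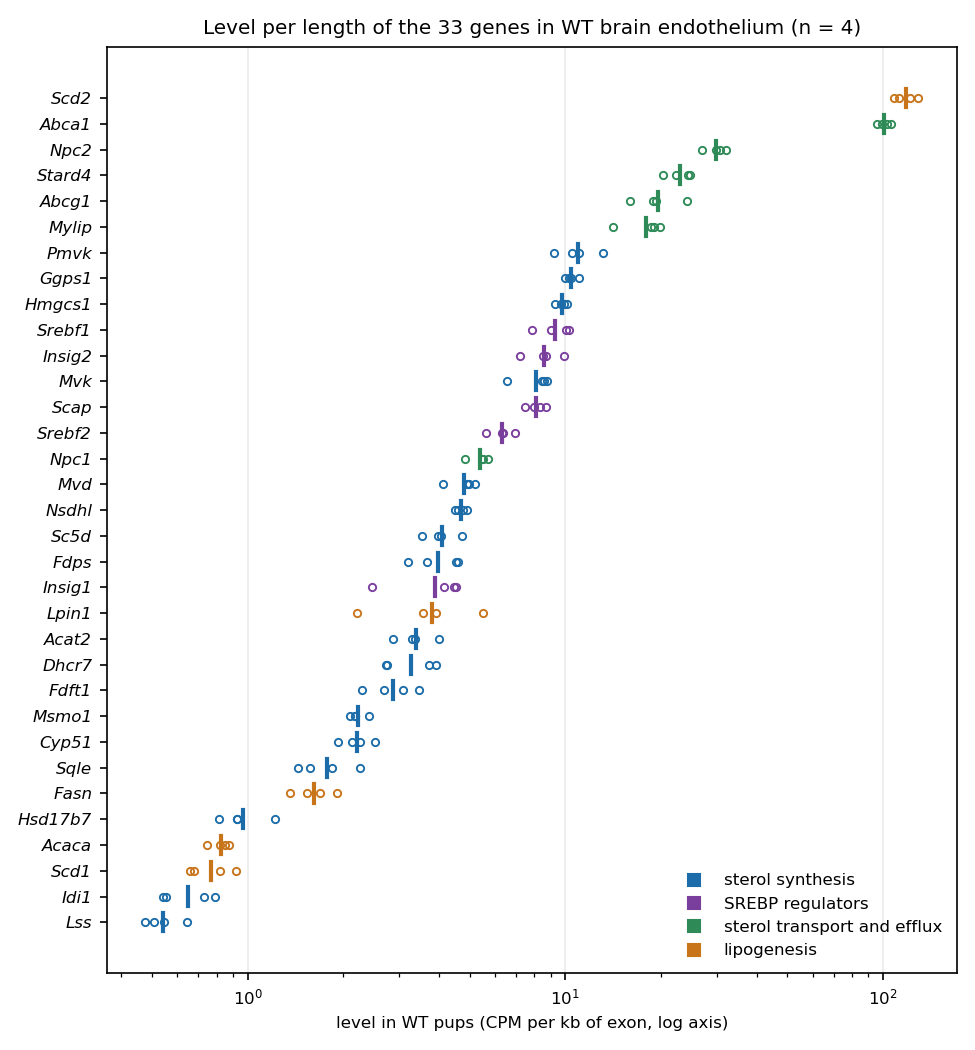
Level of the 33 genes in the 4 WT pups, as CPM per kilobase of annotated exon on a log axis, ordered by mean. Open points are single pups, the short bars are means and colours give the role of each gene. Scd2 and Abca1 sit at about 118 and 101, and every sterol enzyme lies at or below the 11.0 of Pmvk.

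The enzymes of sterol synthesis were lower, with means of 0.543 to 11.0 CPM per kilobase. Pmvk, phosphomevalonate kinase, was the highest of them at 11.0 ± 1.62 CPM per kilobase, beside Ggps1 (10.4 ± 0.472) and Hmgcs1 (9.76 ± 0.368), and these 3 overlapped. Mvk (8.11) came next and Sqle (1.78) was near the low end, with Mvd at 4.81, Nsdhl at 4.69, Sc5d at 4.08, Fdps at 3.99, Acat2 at 3.40, Dhcr7 at 3.28, Fdft1 at 2.88, Msmo1 at 2.22 and Cyp51 at 2.21, and Hsd17b7 stood below it at 0.971. At the low end stood Idi1, the isomerase of isopentenyl diphosphate, at 0.652 ± 0.124, and Lss, which closes the sterol rings, at 0.543 ± 0.0732. A level per length depends on the annotation: Lss has 10787 annotated exonic bases and Idi1 3505, which include every annotated transcript form. The same holds for Acaca, with 17074 such bases, and Fasn, with 10947. In lipogenesis the rate-limiting enzyme gene Acaca measured 0.823 ± 0.0572 and Fasn, the fatty acid synthase, 1.62 ± 0.232, with Lpin1 at 3.80 and Scd1 at 0.769. Npc1, of the sterol transport genes, was the lowest of its class at 5.38. The SREBP genes lay between, with Srebf1 at 9.31 ± 1.11, Insig2 at 8.60 ± 1.09, Scap at 8.11 ± 0.512, Srebf2 at 6.32 ± 0.538 and Insig1 at 3.90 ± 0.967.

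The spread between WT pups also differed from gene to gene. The median coefficient of variation over the 33 genes was 12.6%, beside 11.2% over 11716 tested genes of the same range of CPM. Hmgcs1 varied least, by 3.77%, and Lpin1, a phosphatidate phosphatase of triglyceride synthesis, varied most, by 35.9%. Lpin1 was 53.3 CPM in WT pup 5, 21.3 in pup 1, 37.8 in pup 2 and 34.4 in pup 3. These 4 pups bracketed all KO values, which were 34.7 to 40.0 CPM. Insig1 and Sqle came next, at 24.8% and 20.3%.

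Promoter sequences were searched for the letters that SREBP and its partner factors are known to bind. RefSeq promoter windows (GRCm38.p6, 250 bases before to 50 after a start) were found for 25 of the 33 genes, in 33 windows. The others were Fdps, Fdft1, Sqle, Stard4, Npc1, Abcg1, Scd1 and Scd2. The sterol regulatory element, spelled TCACNCCAC, was read in 1 of those windows, that of Hmgcs1, and in 1.24% of 32851 windows of all genes. The NF-Y motif CCAAT was in 63.6% of the members' windows and 37.4% of all windows, and the GC box GGGCGG in 72.7% and 35.7%. The E-box CACGTG was in 21.2% of the members' windows and 7.15% of all windows. All 33 genes passed the count filter, whereas the windows of all genes were not limited to expressed genes. The 2 sets of windows were therefore not matched for expression. Both strands were read, and a match is a run of letters, not a shown binding site. The 250 bases upstream of the start are printed for 3 genes, chosen for the values described below: Hmgcs1, which carries the element, and Nsdhl and Mylip, the members with the smallest p among sterol enzymes and among sterol transport genes. Capitals mark the sterol regulatory element, CCAAT and the GC box in either orientation, so CCAAT on the other strand reads ATTGG and the GC box CCGCCC.
Hmgcs1 (chr13:119690101-119690350, plus strand): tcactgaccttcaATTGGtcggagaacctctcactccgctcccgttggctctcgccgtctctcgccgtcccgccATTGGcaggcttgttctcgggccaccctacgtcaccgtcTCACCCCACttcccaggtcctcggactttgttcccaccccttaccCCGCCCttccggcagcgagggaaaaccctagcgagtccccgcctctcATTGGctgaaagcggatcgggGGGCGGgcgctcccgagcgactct
Nsdhl (chrX:72918271-72918520, plus strand): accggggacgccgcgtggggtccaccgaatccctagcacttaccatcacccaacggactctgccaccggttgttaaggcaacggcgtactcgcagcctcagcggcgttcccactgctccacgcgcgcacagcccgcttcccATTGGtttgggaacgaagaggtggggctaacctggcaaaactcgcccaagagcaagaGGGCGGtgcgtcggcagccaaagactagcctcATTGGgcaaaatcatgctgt
Mylip (chr13:45389492-45389741, plus strand): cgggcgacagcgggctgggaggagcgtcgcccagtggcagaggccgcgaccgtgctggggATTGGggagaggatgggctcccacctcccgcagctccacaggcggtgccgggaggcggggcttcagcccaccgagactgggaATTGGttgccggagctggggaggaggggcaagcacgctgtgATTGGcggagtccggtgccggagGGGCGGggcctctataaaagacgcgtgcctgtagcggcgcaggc
The Hmgcs1 stretch holds 1 sterol regulatory element, beginning at position -137 from the start, with 3 CCAAT and 2 GC box matches. The Nsdhl stretch holds 2 CCAAT and 1 GC box matches, and that of Mylip 3 and 1.

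The comparison of genotypes asked whether sterol and fatty acid genes differ between endothelial cells of the 2 labels. None of the 33 genes passed edgeR's quasi-likelihood test with adjustment over all 14154 tested genes: 0 were called higher, where 0.276% of all tested genes were, and 0 lower, where 0.113% were. At an unadjusted p under 0.05, 7 genes (Nsdhl, Sc5d, Hsd17b7, Fdps, Mylip, Acaca and Scd2) were higher in KO and 0 lower, beside 5.52% and 5.61% of all tested genes, and DESeq2 called 1 (Mylip) where it called 2.34% of the genes it tested. In 5 genes every KO pup lay above every WT pup (Fdps, Lss, Nsdhl, Srebf1 and Mylip) and in 0 below, where the background was 3.77% and 3.43%. The median log2 fold change of the 33 genes was 0.06, with 22 above 0, where 50.3% of all tested genes were above 0, and the median over all tested genes was 0.00. For 22 of the 33 genes the 95% interval of the difference lay within 1.5-fold in either direction, and for 32 within 2-fold, the exception being Hsd17b7.

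**Figure D2:**
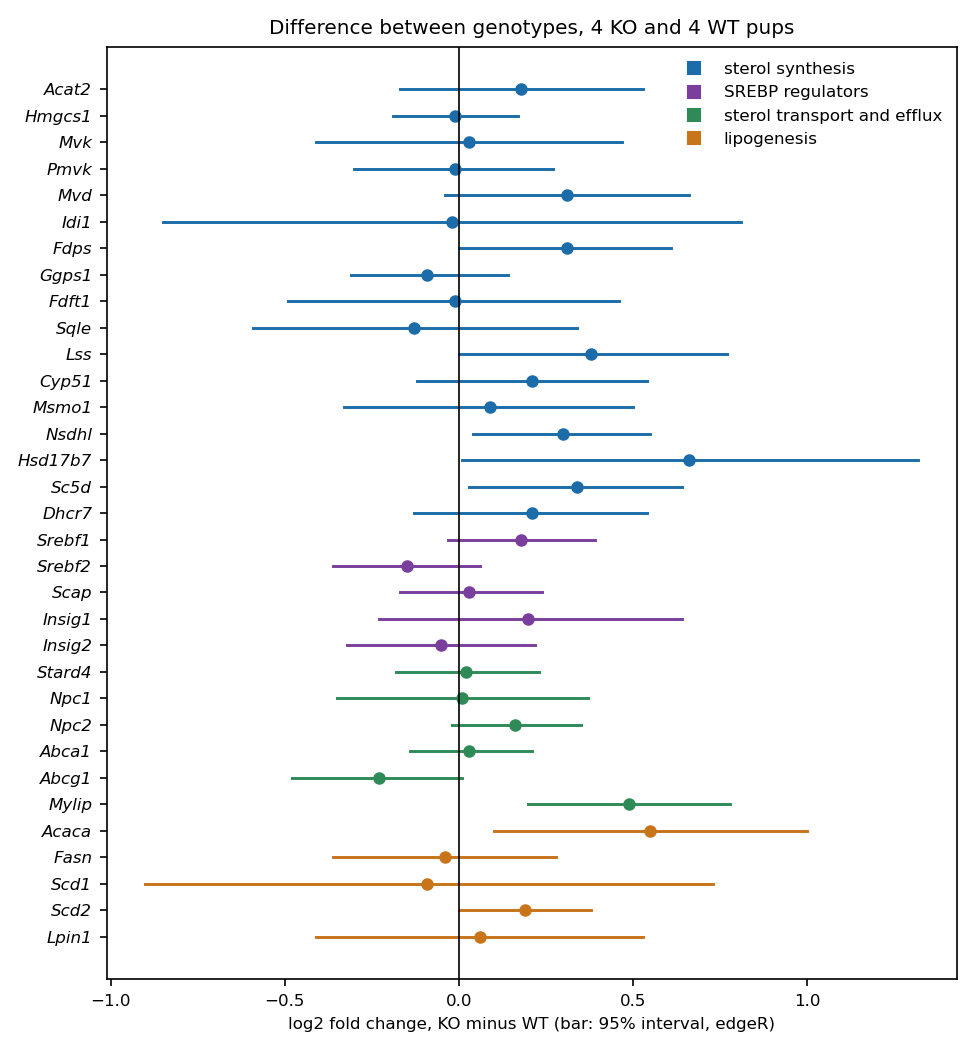
Log2 fold change of each gene, KO minus WT, with its 95% interval from edgeR (4 KO and 4 WT pups). Colours give the role. The intervals of 7 genes lie above 0 and 0 lie below it, and no gene passed after adjustment over all tested genes.

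Among sterol enzymes, 2 genes of late steps (Nsdhl and Lss) and Fdps separated the genotypes, with the lowest KO value above the highest WT value, and none passed the test. Nsdhl, a dehydrogenase of sterol demethylation (GENCODE, GRCm38, chrX:72918557-72958514), measured 15.5, 15.9, 17.3 and 17 CPM in KO pups 1 to 4, and 12.8, 14.0, 13.1 and 13.6 CPM in WT pups 5, 1, 2 and 3. No KO value overlapped a WT value. The log2 fold change was 0.30 (SE 0.12, 95% interval 0.04 to 0.55), with an adjusted p of 0.360. Sc5d, which places a double bond in the sterol ring near the end of the pathway, was 30.7, 22.4, 22.7 and 24.8 CPM in KO and 17.2, 19.8, 23.1 and 19.3 CPM in WT. KO pup 1 was highest and WT pup 2 lay among the KO values. Its log2 fold change was 0.34 (SE 0.14, interval 0.03 to 0.64, adjusted p 0.391).

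Hsd17b7, the reductase that works with Nsdhl, had the largest log2 fold change of the 33 genes, and its KO pups were spread widely. It measured 12.4, 6.13, 8.46 and 4.53 CPM in KO pups 1 to 4 and 4.14, 6.22, 4.74 and 4.72 CPM in WT pups 5, 1, 2 and 3. KO pups 2 and 4 lay within the WT range, KO pup 3 was above it and KO pup 1 was the furthest above it. The log2 fold change was 0.66 (SE 0.30, interval 0.01 to 1.32, adjusted p 0.443), and 0.36 without KO pup 1. Fdps, which makes farnesyl diphosphate, was 20.2, 22.4, 21.3 and 19.4 CPM in KO and 13.5, 19.3, 19.1 and 15.4 CPM in WT, with a log2 fold change of 0.31 (interval 0.00 to 0.61, adjusted p 0.446). The predicted gene Gm43738 shares exonic bases with Fdps on the same strand, so reads of those bases could have been lost or given to either gene. Lss was 7.62, 7.33, 7.80 and 7.83 CPM in KO and 5.87, 6.96, 5.15 and 5.47 CPM in WT, with a log2 fold change of 0.38 (interval 0.00 to 0.77, adjusted p 0.450).

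For Hmgcs1 and Sqle, well-known targets of SREBP-2, the genotypes overlapped. Hmgcs1, which makes the precursor of mevalonate and carries the element printed above, was 41.1, 44.6, 48.4 and 44.5 CPM in KO and 42.6, 45.6, 46.5 and 44.6 CPM in WT. The groups overlapped throughout. Its log2 fold change was -0.01 with an interval of -0.19 to 0.17, the narrowest among the sterol enzymes, followed by that of Ggps1, the geranylgeranyl diphosphate synthase (-0.09, interval -0.31 to 0.14). Sqle, squalene epoxidase and a rate-limiting step, was 12.1, 7.87, 7.31 and 8.83 CPM in KO and 10.2, 12.5, 8.71 and 7.99 CPM in WT. The KO and WT values interleaved, and the interval of -0.59 to 0.34 around -0.13 was wider. Sqle moved both ways with the setting, to 0.18 with cage by file name as a term, 0.01 without WT pup 1, -0.30 without KO pup 1 and -0.35 without KO pup 1 and WT pup 2. Idi1, at 1.45 to 3.31 CPM in all 8 libraries, differed by -0.02 with an interval of -0.85 to 0.81, the widest of the 33 genes, and its KO pups ran from 1.45 to 3.31 CPM. Pmvk was 19.0, 17.4, 19.9 and 18.3 CPM in KO and 15.8, 18.9, 22.5 and 18 CPM in WT, a log2 fold change of -0.01 (interval -0.30 to 0.27).

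The remaining sterol enzymes were between these. Mvd, the decarboxylase of the mevalonate pathway, differed by 0.31 (interval -0.04 to 0.66), Cyp51, which demethylates lanosterol, by 0.21 (-0.12 to 0.54), and Dhcr7, the last reductase, by 0.21 (-0.13 to 0.54). Dhcr7 turned to -0.05 with cage by file name as a term. Acat2, the thiolase at the start, differed by 0.18, Msmo1, a sterol methyl oxidase, by 0.09, Mvk, mevalonate kinase, by 0.03 and Fdft1, squalene synthase, by -0.01. Exons of Idi1, Ggps1, Fdft1 and Cyp51 overlap a gene on the other strand, and the strand setting of the counting is not given, so such reads could not be told apart. Split at squalene, a division made after the values were seen, the 8 steps from squalene on had a median of 0.25 with 7 above 0. The 9 other sterol enzymes, the steps up to squalene together with Ggps1, which does not lead to squalene, had a median of -0.01 with 4 above 0. The 2 medians were not tested against each other.

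As a group the 17 sterol enzymes had a median log2 fold change of 0.18, with 11 above 0 and 6 below, against 0.00 over all tested genes. Their mean log2 CPM was 3.93, 3.78, 3.80 and 3.77 in KO pups 1 to 4 and 3.58, 3.82, 3.62 and 3.65 in WT pups 5, 1, 2 and 3. WT pup 1 lay among the KO pups, and KO pup 1 was highest. Without WT pup 2 the median was 0.10. Among libraries, KO pup 1 was the highest or lowest of the KO pups for 23 of the 33 genes (69.7%), a share close to its 71.8% over all tested genes. The fit with cage by title as a term, which rests on WT pup 5, gave 0.37 for Nsdhl, 0.55 for Sc5d, 0.92 for Hsd17b7, 0.63 for Fdps and 0.38 for Lss. With cage by file name, which rests on WT pup 3, the values were 0.27, 0.38, 0.73, 0.44 and 0.48 in the same order, and none passed in either fit.

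**Figure D3:**
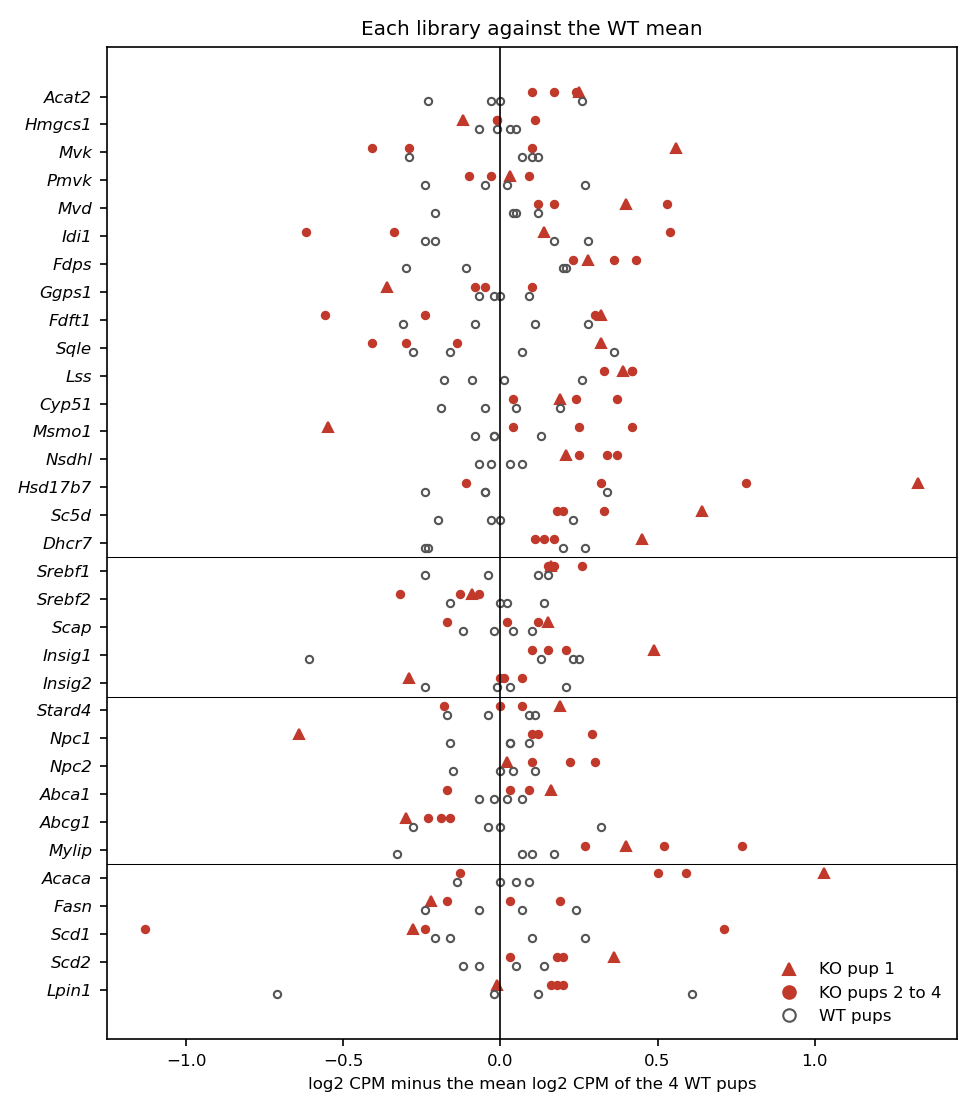
Each library's log2 CPM minus the mean of the 4 WT pups, for the 33 genes in the order of their roles (separated by lines). Red symbols are KO pups, with KO pup 1 as a triangle, and open grey circles are WT pups. KO pup 1 sits far from the other KO pups for Hsd17b7, Npc1, Msmo1, Mvk and Acaca.

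The genes of the SREBP system showed small and opposite differences in its 2 factors. Srebf1 (chr11:60199089-60222581), which encodes SREBP-1, was 58.1, 62.3, 57.9 and 58.6 CPM in KO and 57.9, 50.8, 44.3 and 56.8 CPM in WT. Every KO pup was above every WT pup, though KO pup 3 and WT pup 5 differed by less than the rounding. The groups differed by 0.18 on the log2 scale (SE 0.10, interval -0.03 to 0.39, adjusted p 0.548), 0.10 without WT pup 2, and 0.03 and 0.06 with cage by title and by file name as a term. Exons of Srebf1 overlap Rai1 on the other strand. Srebf2, which encodes SREBP-2, was 42.7, 43.2, 41.4 and 36.3 CPM in KO and 50, 45.9, 40.5 and 45.3 CPM in WT. WT pup 2 lay among the KO pups, and the difference was -0.15 (SE 0.10, interval -0.36 to 0.06, adjusted p 0.622), or -0.29 with cage by title as a term.

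The ratio of Srebf1 to Srebf2, compared per kilobase within each library, separated the genotypes. It was 1.74, 1.84, 1.78 and 2.06 in KO pups 1 to 4 and 1.48, 1.41, 1.39 and 1.60 in WT pups 5, 1, 2 and 3. All 4 KO ratios were above all 4 WT ratios, with means of 1.85 ± 0.143 and 1.47 ± 0.0923 (SD, n = 4). The difference was 0.33 on the log2 scale, and a two-sided exact permutation test gave p = 0.0286, the smallest that 4 against 4 pups allow. It was 1 of 5 ratios between related genes, computed after the values were seen, and adjusted over the 5 the p was 0.143. The WT pup that shared the KO cage had a ratio of 1.48 (pup 5, by title) or 1.60 (pup 3, by the second set of names). Its place below the KO pups follows from the separation of all 8 pups, and the part of cage was not tested. The other 4 ratios overlapped between genotypes. Insig1 over Insig2 was 0.469 to 0.763 in KO and 0.291 to 0.616 in WT (exact permutation p = 0.400, adjusted p 0.400).

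**Figure D4:**
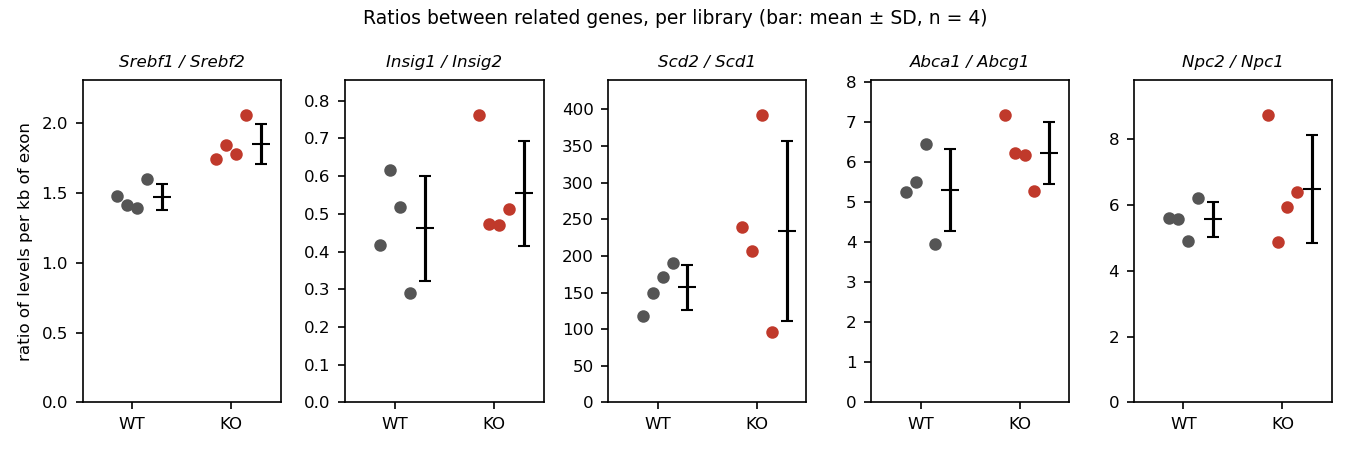
Ratios of levels per kilobase of exon between 5 pairs of related genes, for each WT (grey) and KO (red) pup, with the mean and SD of each group (n = 4) as bars. The ratio of Srebf1 to Srebf2 is 1.39 to 1.60 in WT and 1.74 to 2.06 in KO, and the other 4 pairs overlap.

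The 2 INSIG genes and Scap overlapped between genotypes. Insig1, itself a known SREBP target that retains SREBP in the endoplasmic reticulum, was 16.4, 12.6, 13.0 and 13.6 CPM in KO and 12.8, 13.8, 14.0 and 7.64 CPM in WT. WT pup 3 was low, and the other 3 WT pups lay within the KO range. The difference was 0.20 on the log2 scale (SE 0.20, interval -0.23 to 0.64, adjusted p 0.766), 0.04 without WT pup 3, and 0.86 with cage by file name as a term. Insig2 differed by -0.05 (interval -0.32 to 0.22) and Scap, the escort protein, by 0.03 (interval -0.17 to 0.24).

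Of the genes that move sterols, Mylip had the smallest p of all 33. Mylip (chr13:45389742-45412022) encodes IDOL, a ubiquitin ligase induced through LXR that marks lipoprotein receptors for degradation. It measured 75.9, 69.3, 98.0 and 82.4 CPM in KO pups 1 to 4 and 61.3, 60.0, 64.4 and 45.6 CPM in WT pups 5, 1, 2 and 3. All 4 KO pups were above all 4 WT pups. Group means were 81.4 ± 12.3 and 57.8 ± 8.39 CPM (SD, n = 4), a 1.41-fold difference that is 0.49 on the log2 scale (SE 0.13, interval 0.20 to 0.78). The unadjusted p was 0.00311, rank 248 of the tested genes, and the adjusted p was 0.177, so it was not called by edgeR. DESeq2 called it with the same fold change (adjusted p 0.0278). Over 19 alternative settings the adjusted p ran from 0.0278 to 0.814, the latter from the KO cage alone, where the WT arm is 1 pup. The fold change was 0.41 with cage by title as a term (adjusted p 0.764) and 0.84 with cage by file name (adjusted p 0.287).

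The 2 exporters that LXR is known to induce, Abca1 and Abcg1, gave values near 0 and below 0. Abca1 was 1173, 1068, 1115 and 930.2 CPM in KO and 1031, 1101, 1064 and 994.2 CPM in WT, and the groups overlapped. Its log2 fold change of 0.03 had an interval of -0.14 to 0.21 (adjusted p 0.932). Abcg1 was 115.1, 120.7, 127.0 and 124.0 CPM in KO and 137.9, 141.2, 116.4 and 176.7 CPM in WT. WT pups 5, 1 and 3 were above every KO pup and WT pup 2 was not. The log2 fold change was -0.23 (SE 0.11, interval -0.48 to 0.01, adjusted p 0.483), -0.11 without WT pup 3, the highest, and -0.54 with cage by file name as a term.

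Genes of lysosomal export and cytosolic transfer of sterols overlapped between the genotypes. Npc2 was 164.3, 174.4, 189.1 and 200.1 CPM in KO and 174.9, 166.3, 146.7 and 162.5 CPM in WT, a log2 fold change of 0.16 (interval -0.02 to 0.35, adjusted p 0.519), or 0.06 with cage by title as a term. KO pups 1 and 2 lay inside the WT range. Npc1, its membrane partner in the lysosome, was 39.1 CPM in KO pup 1 and 65.1 to 74.2 in the other KO pups, against 54.6 to 64.8 in WT. The mean difference was 0.01 (interval -0.35 to 0.37), with KO pup 1 below all WT pups and the other KO pups above them, and exons of Npc1 overlap Rmc1 on the other strand. Stard4 differed by 0.02 (interval -0.18 to 0.23).

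In fatty acid synthesis the gene of the first committed step and that of the most abundant desaturase had positive differences, neither of which passed. Acaca (chr11:84129672-84401651), which encodes an acetyl-CoA carboxylase, was 28.6, 21.2, 19.8 and 12.8 CPM in KO pups 1 to 4 and 12.7, 14.9, 14.0 and 14.5 CPM in WT pups 5, 1, 2 and 3. KO pups 1 to 3 were above all WT pups and KO pup 4 was among them. Its difference was 0.55 on the log2 scale (SE 0.21, interval 0.10 to 1, adjusted p 0.341), and 0.35 without KO pup 1. Scd2 was 821.8, 727.5, 735.7 and 655.2 CPM in KO and 591.1, 664.7, 613.2 and 705.8 CPM in WT. KO pup 4 lay below WT pups 1 and 3. The difference was 0.19 on the log2 scale (SE 0.09, interval 0.00 to 0.38, adjusted p 0.445), 0.31 with cage by title as a term and 0.06 with cage by file name.

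Fasn, Scd1 and Lpin1 overlapped between genotypes. Fasn, the synthase that builds palmitate, was 15.1, 20.1, 18.1 and 15.6 CPM in KO and 16.8, 20.9, 14.9 and 18.5 CPM in WT. The 2 sets covered the same range, and the log2 fold change was -0.04 (interval -0.36 to 0.28, adjusted p 0.948). Scd1, the paralog of Scd2, was far lower, at 1.67 to 6.13 CPM in KO and 3.22 to 4.49 in WT, with an interval of -0.90 to 0.73 around -0.09. In WT pups Scd2 exceeded Scd1 per kilobase by 118 to 190 times. Reads shared between such close paralogs may be lost or given to either gene in the counting, so the low level of Scd1 is the more uncertain. Lpin1 differed by 0.06 (interval -0.41 to 0.53), by 0.29 without WT pup 5, by -0.13 without WT pup 1 and by -0.48 with cage by title as a term.

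Further genes of these pathways were read from 4 lists chosen by function, and none of them passed over all tested genes. In the list of other sterol synthesis, processing and uptake genes, 0 of 15 were called and 5 were above 0 (median -0.07). Lrp8, the ApoE receptor 2 and a known target of IDOL, was 918.2 to 1192 CPM in KO and 1335 to 1422 in WT, a log2 fold change of -0.34 (interval -0.53 to -0.16, adjusted p 0.134) without overlap. Scarb1, which takes up cholesterol from HDL, differed by -0.26 (interval -0.45 to -0.08, adjusted p 0.247). Among 18 tested genes of LXR signalling, oxysterols and esterification 0 were called (median 0.02). Rxra, the partner receptor of LXR, was 48.6 to 55.5 CPM in KO and 61.0 to 68.6 in WT, a log2 fold change of -0.29 (interval -0.46 to -0.12, adjusted p 0.186). Rxrb differed by -0.19 (adjusted p 0.476).

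Of 28 tested further lipogenic genes 0 were called (median 0.04, 18 above 0). Me1, the malic enzyme that supplies NADPH for fatty acid synthesis, was 13.1, 7.50, 7.03 and 6.75 CPM in KO pups 1 to 4 and 5.16, 3.27, 4.83 and 3.69 CPM in WT pups 5, 1, 2 and 3. All KO pups were above all WT pups, with KO pup 1 the highest. The log2 fold change of 1.02 (SE 0.27, lower end of the interval 0.43) had an adjusted p of 0.168. Gpam, the acyltransferase that starts glycerolipid synthesis, was 58.5 to 77.7 CPM in KO and 54.8 to 57.2 in WT, without overlap (log2 fold change 0.30, adjusted p 0.242). The 10 genes that use isoprenoids, such as the prenyltransferases, gave 0 calls and a median of 0.05, with Pdss1 at 0.33 and Fntb at -0.17, the 2 smallest p of the list.

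Markers of other cells that a sort could carry were read beside these values. The 5 choroid plexus markers summed to 16.4 to 290.1 CPM in KO and 364.1 to 1867 in WT without overlap (two-sided exact permutation p = 0.0286), all 5 fold changes were below 0, and 0 were called. Kl and Otx2 of that list were at 0 in KO pup 1. Astrocyte markers summed to 321.7 to 438.9 CPM in KO and 328.4 to 390.8 in WT. The sum was carried by Gja1, which was lower in KO (log2 fold change -0.23, unadjusted p 0.0443 in edgeR's quasi-likelihood test). The other 7 of the 8 astrocyte genes were above 0. Of these, 6 had an unadjusted p under 0.05, where 5.52% of all tested genes were higher in KO at that level. The median log2 fold change of the 8 genes was 1.06, and 0 were called. Microglia and macrophage markers summed to 925.8 to 2536 CPM in KO and 884.4 to 1387 in WT, with all 10 genes above 0 and 0 called. KO pup 3, the highest, was also the highest pup for Mylip, whose log2 fold change was 0.38 without it. Mural markers summed to 1759 to 2650 CPM in KO and 478.9 to 2670 in WT, and fibroblast markers to 99.7 to 247.5 and 112.7 to 252.8. Oligodendrocyte markers summed to 91.5 to 173.1 CPM in KO and 74.6 to 170.2 in WT, neuron markers to 27.7 to 42.1 and 26.0 to 41.5, and erythroid markers to 568.9 to 1000 and 522.0 to 1629. The neuronal gene Snap25 was under 1 CPM in every library and 0 in KO pup 1. The part of these cells in the values of the sterol and fatty acid genes was not tested.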

How the data were processed

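Messenger RNA of endothelial cells sorted from 8 pup brains was sequenced from stranded libraries, per the labels' protocols. The authors deposited 1 table of raw counts (whole numbers, by gene) per library, and no other unit was used. STAR, featureCounts and GRCm38 are named in the submitters' processing notes. No source used here gives their versions, the annotation or the strand setting. Names, positions and exon lengths came from GENCODE M21 (GRCm38), which named 25664 of 25700 identifiers. The 36 others stayed in the tests.

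Groups followed the genotype in the sample titles. Genes were kept by filterByExpr (minimum count 10, minimum total 15), leaving 14154, and scaled by TMM (factors 0.978 to 1.026). edgeR 4.0.16 in R 4.3.3 fitted genotype alone with its quasi-likelihood F test. Benjamini-Hochberg adjustment covered every tested gene (threshold 0.05), and the F statistic gave the SE and 95% interval of each fold change. CPM are TMM-scaled, and log2 CPM used a prior count of 2. The fit was tested on simulated data. There it called 92.0% of 100 genes changed 2-fold, 53.0% of 100 changed 1.5-fold and 0.0729% of 13716 unchanged genes. A gene without a call can therefore still differ by 1.5-fold.

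Members and lists were chosen with earlier results of these data known. Values of every library are given for the 3 smallest p and the highest level per length in each role, and for genes whose groups did not overlap or that are well-known targets (chosen after their values were seen). Alternatives changed scaling, filter, test (DESeq2 1.42.0, limma-voom 3.58.1), cage, pup-number block and libraries. No 2 libraries held the same counts (chi-square per gene at least 16.0). With 4 pups a group, p-values set the difference between genotypes against the spread between these pups. Genotype and cage were nearly confounded, so that spread does not cover differences between cages.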

Additional observations from a re-analysis of the deposited data

Results flagged for a closer look

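Of 66 groups of 4 values (33 genes in each genotype), 3 had 1 pup far from the other 3 by Dixon's test at the 95% level, about as many as the 1 in 20 that chance gives. Mvk was lowest in WT pup 2, at 17.6 CPM against 22.6 to 23.5 CPM in the other WT pups. Dhcr7 was highest in KO pup 1, at 25.8 CPM against 20.4 to 21.2 CPM in the other KO pups. Srebf1 was highest in KO pup 2, at 62.3 CPM against 57.9 to 58.6 CPM in the other KO pups.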

How the results depend on the processing

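Over 19 alternative settings, 0 of the 33 genes were called lower in any and 0 were called higher in 18, while the DESeq2 test called 1 higher (Mylip, log2 fold change 0.49). The fold change kept its sign in all 19 for 17 genes, 14 above 0 and 3 below, and changed sign in at least 1 for the other 16. The largest number of sign changes, 8 of 33 genes, came with either cage term and with only the KO cage by title. The median log2 fold change of the 33 genes was 0.06. It was 0.11 with limma-voom and with cage by file name as a term, and 0.12 with the replicate block, and without 1 library it ran from 0.05 to 0.13. The number of all genes called was 55. It was 84 with no filter on low counts, 351 with DESeq2, 16 with cage by title, 10 with cage by file name, 22 within the KO cage by title, where the WT arm is 1 pup assumed to vary as the KO pups do, and 11 with the replicate block. Leaving out 1 library gave 32 (without KO pup 3) to 85 (without KO pup 1), and 36 without KO pup 2. The cause of these shifts was not tested. Same-numbered KO and WT pups came from different animals, and their deviations correlated at -0.03, 0.03 and -0.07, so the numbers do not pair them. The file names number the WT pups otherwise, and by those numbers the correlations were -0.09, -0.03 and 0.04. The block used the numbers in the titles. The Srebf1 to Srebf2 difference was 0.28 to 0.37 on the log2 scale without 1 library, a check chosen after seeing the data. The files hold no gene lengths, so the alternative exon length was not run. Idi1 and Scd1 had the fewest reads and the widest intervals, and depth and spread between pups were not separated.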
